A study of Mus musculus with 4 samples.

Results

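The 2 libraries of wild-type (WT) mouse pituitary were compared between 14 and 40 weeks of age. They are 2 of 4 single-cell RNA libraries, and the other two come from p25OE mice, which overexpress p25, an activator of the kinase Cdk5. The WT animals were littermates of the p25OE mice on a background labelled C57BL/6- B6;CBA-BiTg, and all 4 libraries carry that strain label. Each genotype and age is 1 library, so the groups are WT at 14 weeks, WT at 40 weeks, p25OE at 14 weeks and p25OE at 40 weeks. The number and sex of the animals, the time of day of collection and the libraries that shared a run are not given in the sources used here. Barcodes with at least 500 detected genes and at most 20% of unique molecular identifiers (UMIs) from mitochondrially encoded genes were kept. This left 14506 WT cells, 6579 at 14 weeks and 7927 at 40 weeks, of 29899 cells in all 4 libraries.

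Within the WT libraries, 3 sets of cells were gated. The Gh cells had at least 20% of their UMIs from Gh, the growth hormone gene, and the Prl cells at least 20% from Prl, the prolactin gene. The C1q cells held at least 5 UMIs of C1qa, C1qb and C1qc together, the genes of the complement component made by tissue macrophages. A gene shifted in the same direction in all 3 sets is called shared below.

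The anterior pituitary is built from endocrine cells that each fill their secretory granules with 1 main hormone, among them somatotrophs (growth hormone) and lactotrophs (prolactin). Corticotrophs and the melanotrophs of the intermediate lobe cut the Pomc precursor into peptide hormones, and resident macrophages sit between the endocrine cells. Folding these hormones occupies the endoplasmic reticulum, whose stress response adjusts chaperones such as Hspa5. Pituitary cells also carry a circadian clock. In it, Arntl (BMAL1) and Clock activate genes through E-box elements, and the Dbp, Tef and Hlf proteins then act on D-box elements.

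The 40-week library was the shallower of the pair. It held 53714895 UMIs against 95242353 at 14 weeks, and a kept cell had a median of 4940 UMIs against 10778. Barcodes under 500 detected genes were 34.2% at 40 weeks and 18.5% at 14 weeks, and barcodes above 20% mitochondrial UMIs were 0.158% and 12.7%. The WT libraries shared 2 cell barcodes and pairs of different age shared 1 to 5, whereas the libraries of the same age shared 32 at 14 weeks and 135 at 40 weeks. The barcode sets thus differ between the ages, and age, library depth and barcode set cannot be told apart here.

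The gates held 1104 Gh cells at 14 weeks and 1487 at 40 weeks. There were 2121 and 2118 Prl cells, and 757 and 1588 C1q cells. Median depth was 18819.5 and 8620 UMIs in the Gh cells and 17713 and 5675.5 in the Prl cells. In the C1q cells it was 4051 and 4242.5. Cells just inside the Gh gate (20 to 25% Gh) numbered 111 and 163 and cells just outside it (15 to 20%) 125 and 252. For Prl these were 122 and 361 inside and 106 and 507 outside. For C1q they were 24 and 315 cells at 5 UMIs and 25 and 467 at 4 UMIs.

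The C1q gate was less pure at 40 weeks. Of the 757 C1q cells at 14 weeks, 97 (12.8%) were also in a hormone gate, against 642 of 1588 (40.4%) at 40 weeks, and Gh made up 4.25% and 21.9% of the set's UMIs. The 13 macrophage markers include C1qa, C1qb and C1qc, whose part in the C1q cells is fixed by the gate. Of the others, Tyrobp was at 1163 CPM (counts scaled to a fixed library total) there at 14 weeks and 467 at 40 weeks. Cd74 was at 11987 and 5056 CPM. All 13 summed to 31614 and 11164 CPM, and none was at 0. In the Gh cells the same list summed to 200.2 and 1134 CPM, and in the Prl cells to 260.1 and 1197 CPM. After every cell was thinned to 1000 UMIs, at least 1 C1q UMI was found in 3.18% of Gh cells at 14 weeks and 28.6% at 40 weeks. Without hormone-rich C1q cells (under 10% of UMIs from Gh, Prl and Pomc), 613 and 192 cells remained, and their macrophage markers summed to 50596 and 39779 CPM. These sums again include the gate genes, and Tyrobp was at 1864 and 1609 CPM. This narrower set was chosen after the data were seen. It is given beside the C1q results and is called the low-hormone C1q set.

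UMIs were summed over the cells of a set in each library. Levels are given in scaled CPM. For these, the summed UMIs of each library, and not their CPM, were divided by a median-of-ratios size factor. This factor sets the typical gene of a set to no shift. The results were then put on the CPM scale with the same total for both libraries, the geometric mean of their UMI totals in the set. A gene was measured with at least 50 UMIs over both libraries and a mean of at least 10 scaled CPM. It was called higher or lower at a ratio of at least 2-fold whose exact 95% interval for a pair of Poisson counts left out equality. With 1 library a side there is no replicate check and no p-value, and the intervals cover counting error only. Fewer cells of a type in a summed set and less RNA per cell cannot be told apart.

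Shared shifts made up a small share of the genes measured. Over all kept cells, 319 of 7768 measured genes were higher at 40 weeks (4.11%) and 286 lower (3.68%). In the Gh cells 368 of 7200 were higher (5.11%) and 389 lower (5.4%), and in the Prl cells 321 of 6200 were higher (5.18%) and 452 lower (7.29%). The C1q cells had the larger counts, 805 of 8183 higher (9.84%) and 1030 lower (12.6%). Among 5893 genes measured in all 3 sets, 136 were higher in each of them (2.31%) and 110 were lower in each (1.87%). The plot of the ratios by cell set shows where both groups lie, and their agreement in direction there is fixed by how they were selected.

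**Figure D1:**
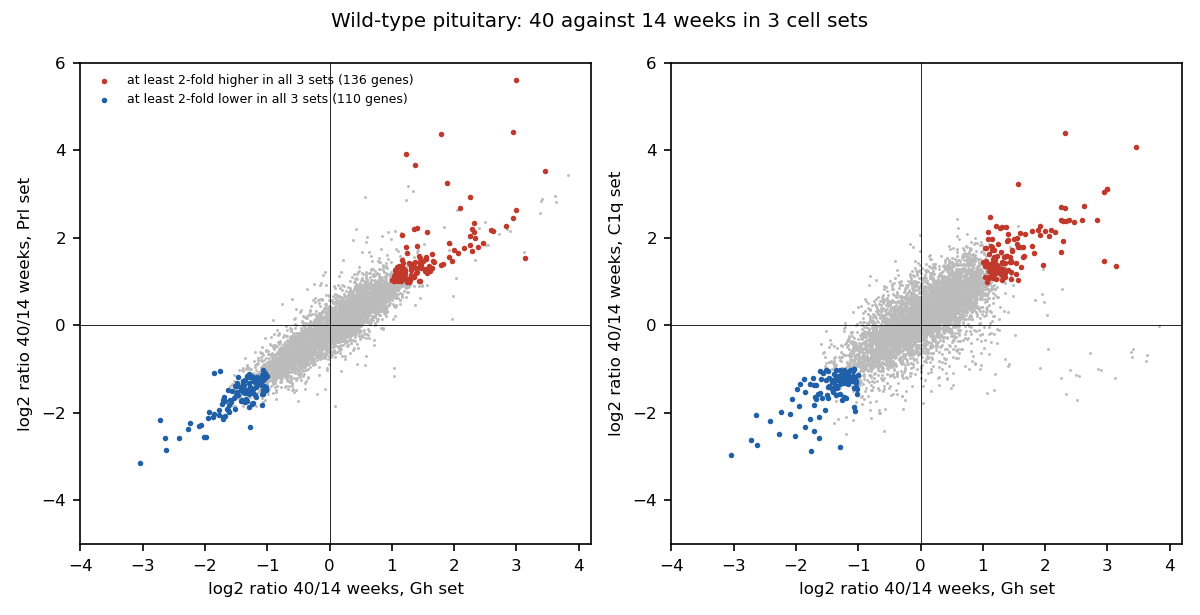
Log2 ratio at 40 over 14 weeks in the Gh cells (x axis) against the Prl cells (left, y axis) and the C1q cells (right, y axis), 1 point per gene measured in all 3 sets. Red points are the 136 genes higher and blue points the 110 genes lower in all 3 sets, and 8 genes lie beyond the axes in each panel.

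The balance of higher and lower genes depended on the scaling. With plain CPM the log2 ratios moved by -0.39 in the Gh cells, -0.03 in the Prl cells and -0.61 in the C1q cells. The shared counts became 47 higher and 328 lower (12.5% of the calls higher, against 55.3%), and those of all kept cells 127 and 798 (13.7% higher, against 52.7%). Those 47 higher genes were all among the 136, and all 110 lower genes were among the 328. In CPM without hormone, mitochondrially encoded and ribosomal protein genes, 71 and 178 genes were shared (28.5% higher). Among genes averaging at least 50 scaled CPM the split turned the other way, with 78 shared genes higher and 8 lower (90.7% higher).

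The higher genes were short and the lower genes long. The longest annotated transcript had a median of 1015.5 bases for the 136 shared higher genes and 5533.5 bases for the 110 shared lower genes, against 2828 bases for 5889 measured genes found in the annotation. The quartiles were 706 and 1478.25 bases for the higher genes and 3419.25 and 8333.25 for the lower genes, so that the middle ranges did not overlap. Without ribosomal protein genes the 117 higher genes still had a median of 1055 bases. Any part of transcript length in the shifts was not tested.

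**Figure D2:**
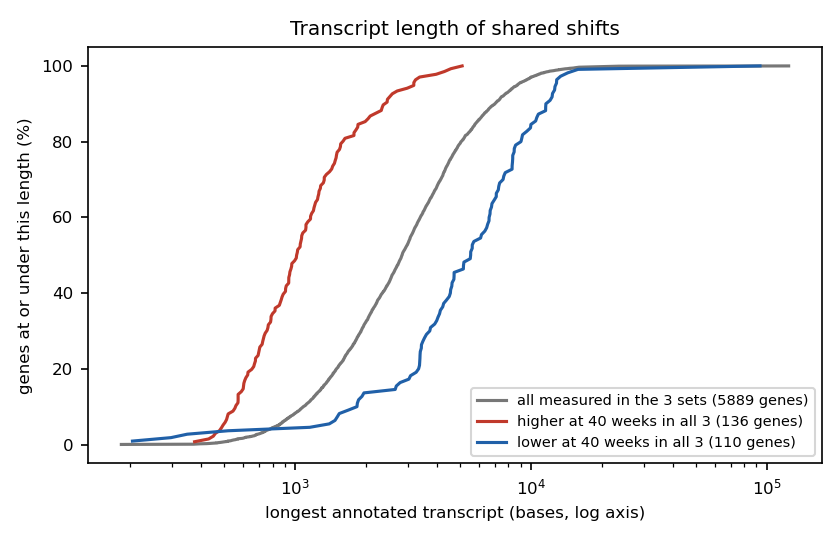
Cumulative share of genes (y axis, %) by the length of the longest annotated transcript (x axis, bases, log axis) for the 136 shared higher genes, the 110 shared lower genes and 5889 measured genes. The curve of the higher genes lies left of all measured genes (median 1015.5 against 2828 bases) and most of the curve of the lower genes lies right (median 5533.5 bases).

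The transcript ends of many of the higher genes also share sequence with another annotated gene. Positions were not compared, so gene models that overlap at 1 place count as well as copies elsewhere. A 50-base stretch of the last 300 transcript bases was shared with another gene in 39 of the 136 higher genes (28.7%), 6 of the 110 lower genes (5.45%) and 471 of the 5889 measured genes (8.0%). The higher genes hold 21 ribosomal protein genes or their copies. Without the ribosomal protein genes the share was 22.2% of 117. A 3' tag from such a shared stretch cannot be assigned to 1 gene with certainty, so the levels of these genes are uncertain. A pair of examples is printed because both members of each were higher and the last 60 coding bases are identical (stop codon at the end, GENCODE M21 annotation on GRCm38, the assembly of mm10).
Rnaset2a and Rnaset2b: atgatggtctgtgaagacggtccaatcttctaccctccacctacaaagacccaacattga
Rpl10 and Rpl10-ps3: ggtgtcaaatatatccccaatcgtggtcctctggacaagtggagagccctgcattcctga

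Rnaset2a and Rnaset2b encode copies of a lysosomal ribonuclease and lie on chromosome 17 (mm10 chr17:8115445-8148097 and chr17:6970634-7011299). Rnaset2a was at 17.1 scaled CPM at 14 weeks and 122 at 40 weeks in the Gh cells, 117 and 560 in the Prl cells, and 59.5 and 317 in the C1q cells. Rnaset2b was at 13.6 and 81.7 in the Gh cells, 76.4 and 346 in the Prl cells, and 39.3 and 210 in the C1q cells. Both rose in each set, and in every set Rnaset2a stayed above Rnaset2b. Rpl10-ps3, a gene named after its values were seen and a processed copy of the ribosomal protein gene Rpl10, rose from 16.4 to 180 scaled CPM in the Gh cells, from 14.8 to 170 in the Prl cells and from 11.2 to 190 in the C1q cells. Rpl10 itself was 2.84, 2.77 and 3.93 times higher.

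Ribosomal protein genes, which encode the protein part of the cytosolic ribosome, were the most frequent class among the shared higher genes. Of 83 measured, 29 rose in the Gh cells, 19 in the Prl cells and 39 in the C1q cells, and none fell, where 5.11%, 5.18% and 9.84% of all measured genes were higher. Their median log2 ratios were 0.80, 0.51 and 0.97, beside 0.03, -0.01 and 0.07 over all genes measured in those sets, and stayed above 0 under both CPM scalings. Rpl23a, a large-subunit protein, went from 260.2 to 2085 scaled CPM in the Gh cells (8.01-fold, interval 7.80 to 8.23), from 292.4 to 1835 in the Prl cells and from 271.8 to 2352 in the C1q cells. Rps6, a small-subunit protein, went from 709.7 to 3401, from 754.2 to 3111 and from 542.7 to 3551. The end of Rpl23a is shared with 23 other genes and that of Rps6 with 11. Not all members moved this way: Rpsa was at 1423 and 1028 scaled CPM in the Gh cells and 1843 and 957 in the Prl cells. The class as a whole took 10.6% of all UMIs at 14 weeks and 15.1% at 40 weeks.

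Nuclear genes of oxidative phosphorylation, whose products join the respiratory chain complexes, also had list medians above those of all genes. Of 73 measured, 15 rose in the Gh cells, 7 in the Prl cells and 27 in the C1q cells, and none fell, where 5.11%, 5.18% and 9.84% of all genes were higher. Their medians were 0.77, 0.62 and 0.92, against 0.03, -0.01 and 0.07 over all genes, and stayed above 0 under both CPM scalings. Cox6a1, a subunit of cytochrome c oxidase, rose from 72.4 to 302 scaled CPM in the Gh cells, from 132 to 415 in the Prl cells and from 103 to 423 in the C1q cells. Cox7a2l, which takes part in joining respiratory complexes, was 2.94, 2.95 and 3.99 times higher. Ndufa6 of complex I was 2.94, 2.84 and 3.65 times higher.

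Other shared higher genes named by size were Nme2 (a nucleoside diphosphate kinase), Phpt1 (a histidine phosphatase), Cisd3 (an iron-sulfur protein of mitochondria) and Dbp, described with the clock. Nme2 (chr11:93949814-93956259) rose from 2.72 to 21.0 scaled CPM in the Gh cells, from 7.42 to 40.4 in the Prl cells and from 4.11 to 34.1 in the C1q cells. Its transcript end shares 98.0% of its 50-base stretches with 4 other genes. Cisd3, whose end is shared with none, rose from 16.7 to 83.3, from 23.4 to 103 and from 15.9 to 103. Phpt1 rose from 18.9 to 92.4, from 22.1 to 102 and from 21.6 to 113. Wdr89, a WD-repeat gene, rose from 18.3 to 92.5, from 19.96 to 79.6 and from 20.2 to 105. Cisd3, Phpt1 and Wdr89 each rose by more than 3-fold in every set.

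A further group of shared higher genes are products of other cells. Haemoglobin UMIs made up 0.00143% of all UMIs at 14 weeks and 0.434% at 40 weeks, and Hbb-bs had 23 and 16719 UMIs in the Gh cells, 663 and 16090 in the Prl cells, and 10 and 17630 in the C1q cells. The neutrophil genes S100a8 and S100a9 had 4 and 621 and 0 and 397 UMIs in the Gh cells. Lhb, the luteinizing hormone subunit gene of gonadotrophs, was at 5.12 scaled CPM in the Prl cells at 14 weeks and 252 at 40 weeks. Tshb, the thyrotropin subunit gene, was at 38.8 and 195 there. These genes were at higher levels at 40 weeks in sets of cells that are not known to make them. The lists moved with them: the 5 red cell markers summed to 2.09 and 2304 CPM in the Gh cells, the 8 neutrophil markers to 0.846 and 106 CPM (3 of 8 at 0 at 14 weeks), and the 7 gonadotroph markers in the Prl cells to 113 and 1552 CPM. Gh itself rose in the Prl cells from 6834 to 33616 scaled CPM. Macrophage genes moved likewise: 9 of the 13 macrophage markers were measured in the Gh cells and all 9 were called higher, as in the Prl cells, and Cd74 went from 85.6 to 567.9 scaled CPM in the Gh cells. Free RNA or doublets as the source were not tested.

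Mitochondrially encoded genes split. Of 13 measured, 6 fell in the Gh cells, 6 in the Prl cells and 5 in the C1q cells. Only 1, mt-Nd1, rose, and it did so in all 3. Over all genes 5.4%, 7.29% and 12.6% fell in these sets and 5.11%, 5.18% and 9.84% rose. mt-Nd1 (chrM:2751-3707), a subunit of complex I, went from 1254 to 3203 scaled CPM in the Gh cells, from 1588 to 3443 in the Prl cells and from 1573 to 4210 in the C1q cells. mt-Nd4l (chrM:9877-10173), another complex I subunit, went from 251 to 30.2, from 402 to 45.3 and from 358 to 45.5 (log2 ratios -3.05, -3.15 and -2.97). The 2 genes of 1 complex thus moved in opposite directions in every set. mt-Nd3 (log2 ratios -2.41, -2.58 and -2.18), mt-Nd6 (-2.72, -2.16 and -2.61), mt-Atp8 (-1.71, -2.11 and -1.83) and mt-Nd5 (-1.52, -1.38 and -1.26) fell in all 3 sets. mt-Co1 at 0.27, 0.32 and 0.33 and mt-Atp6 at 0.13, -0.21 and 0.14 did not pass. mt-Nd1 was under 2-fold with plain CPM in the Gh and C1q cells, and in the Prl cells with CPM that leaves out abundant classes.

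Beside the 5 mitochondrially encoded genes and 3 unnamed gene models, 102 others were among the 110 shared lower genes. The named ones are given with what each is known to do. Lars2, the mitochondrial leucyl-tRNA synthetase (chr9:123366927-123462666), fell from 28.9 to 4.68 scaled CPM in the Gh cells, from 30.1 to 4.15 in the Prl cells and from 39.8 to 5.97 in the C1q cells. Brd1, a subunit of histone acetyltransferase complexes, fell from 42.8 to 10.6, from 32.9 to 5.62 and from 71.1 to 12.2. Ep300, a histone acetyltransferase, fell from 44.5 to 12.3, from 29.5 to 7.24 and from 72.5 to 14.5. Lars2, Brd1 and Ep300 each fell by more than 3-fold in every set.

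Of 34 splicing and RNA-binding genes 1 fell and none rose in each of the Gh, Prl and C1q cells. This was below the share of all genes that fell, 5.4%, 7.29% and 12.6% in these sets. Of the cell cycle genes 1 of 10 fell and none rose in the Gh cells. In the Prl cells 1 of 9 fell and 1 rose, and in the C1q cells 3 of 11 fell and 3 rose. The shares of all genes that rose were 5.11%, 5.18% and 9.84%. Hnrnpa0, an RNA-binding protein, fell from 93.7 to 24.3 scaled CPM in the Gh cells, from 98.0 to 22.6 in the Prl cells and from 120 to 33.4 in the C1q cells. Eid2, an inhibitor of EP300-type acetyltransferases, fell from 48.3 to 7.69, from 40.2 to 6.75 and from 34.9 to 8.50. Cep350, a centrosome protein, fell from 35.2 to 7.30, from 25.8 to 4.99 and from 39.9 to 7.19. Cdkn1b, the p27 inhibitor of cyclin-dependent kinases, fell from 50.8 to 20.6, from 37.6 to 13.1 and from 55.4 to 22.3. Ccnd1, cyclin D1, fell from 93.1 to 38.4, from 73.8 to 14.8 and from 87.6 to 38.5. An inhibitor and an activator of the same cell cycle step thus fell together. The tumour suppressors Apc and Smad4, the chromatin genes Suz12, Kdm1a, Nsd1, Kmt2b, Kat6a and Tet2, and the RNA helicases Dhx9 and Dhx36 were also among the 110; these were chosen for naming after their values were seen, Dhx36 excepted.

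The Pomc cells and the cells in no gate moved the same way. Cells with at least 20% of UMIs from Pomc numbered 378 at 14 weeks and 454 at 40 weeks. Of these 12 and 17 were also in the C1q gate, 1 at 14 weeks in the Gh gate and 1 at 40 weeks in the Prl gate. In the Pomc cells 361 of 7889 genes were higher (4.58%) and 543 lower (6.88%). Of the 136 shared higher genes 132 were measured there, all with a ratio above 1, and 93 were called higher. Of the 110 lower genes 108 were measured, 107 with a ratio below 1, and 86 were called lower. In the remaining kept cells, where 414 of 9214 genes were higher (4.49%) and 394 lower (4.28%), 118 of 136 and 88 of 110 were called in the same direction. With the low-hormone C1q set in place of the C1q set, 96 of the 136 and 102 of the 110 were still shared.

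The p25OE libraries share no sample with the WT comparison but were collected at the same ages. Over all their kept cells, 858 of 8969 genes were higher at 40 weeks (9.57%) and 771 lower (8.6%). Of the shared higher WT genes 131 were measured there, of which 98 were called higher and 13 lower, and the median log2 ratio was 1.36. All 110 lower genes were measured, and 70 were called lower and none higher, with a median of -1.21. In the p25OE Pomc cells, where 733 of 8267 genes were higher (8.87%) and 585 lower (7.08%), 92 of 120 higher genes and 67 of 108 lower genes moved the same way. In the p25OE C1q cells (634 of 8933 higher, 7.1%, and 1093 lower, 12.2%) these were 84 of 123 and 84 of 110. In the p25OE Prl cells (306 of 6193 higher, 4.94%, and 1047 lower, 16.9%) they were 58 of 120 and 80 of 103, with only 54 cells at 40 weeks. The p25OE Gh gate held 48 cells at 40 weeks and gave no value. Some single members followed: over all p25OE cells Rpl23a had a log2 ratio of 3.03, Nme2 2.87, Cisd3 2.52, mt-Nd1 1.09, mt-Nd4l -3.93, Lars2 -3.41 and Brd1 -2.46. Products of other cells went the other way, with Cga at -3.95, Lhb -4.44, Tshb -8.04, S100a8 -5.70 and S100a9 -7.02. Haemoglobin was 0.0110% of all p25OE UMIs at 14 weeks and 2.49e-05% at 40 weeks. The p25OE ages have the same differences in barcode set as the WT ages.

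Clock genes were led by Dbp, a D-box transcription factor under direct control of the clock (chr7:45705088-45710203). Dbp had 349 UMIs at 14 weeks and 732 at 40 weeks in the Gh cells, 236 and 571 in the Prl cells, and 109 and 771 in the C1q cells. In scaled CPM it rose from 13.6 to 58.1 (4.28-fold, interval 3.76 to 4.88), from 6.26 to 40.1 (6.41-fold, 5.50 to 7.50) and from 17.2 to 78.0 (4.53-fold, 3.71 to 5.59). In the Pomc cells it had 55 and 423 UMIs, a log2 ratio of 4.46. Dbp was thus higher at 40 weeks in each of the 4 sets. Clock genes change over the day, and the hour of collection is not given, so for Dbp and the clock genes that follow age and hour of collection cannot be told apart. In p25OE its log2 ratio was 3.14 over all cells, 3.18 in the C1q cells and 3.15 in the Pomc cells.

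Arntl, the clock activator (chr7:113207465-113314126), went the other way. It had 400 and 78 UMIs in the Gh cells, 521 and 104 in the Prl cells, 115 and 61 in the C1q cells, and 286 and 7 in the Pomc cells. It fell in the Gh, C1q and Pomc cells (log2 ratios -1.33, -1.56 and -3.83), and its ratio of -0.92 in the Prl cells did not pass. In p25OE Arntl had log2 ratios of -0.58 over all cells and -0.35 in the C1q cells, which did not pass, and -1.25 in the Pomc cells, where it fell. Clock, the partner of Arntl, was at -0.77, -0.86, -0.98 and -1.36 in the Gh, Prl, C1q and Pomc cells, and passed in the Pomc cells.

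Of the 22 clock genes listed, 19 were measured in each set. In the Gh cells 2 rose and 2 fell, in the Prl cells 3 rose and none fell, in the C1q cells 6 rose and 2 fell, and in the Pomc cells 6 rose and 3 fell. Over all genes 5.11%, 5.18%, 9.84% and 4.58% were higher and 5.4%, 7.29%, 12.6% and 6.88% lower in these sets. The list medians were -0.03, 0.14, 0.39 and 0.20, beside 0.03, -0.01, 0.07 and -0.05 over all genes. The CPM scalings move every gene of a set by 1 amount, so they move list and all-gene medians alike. Tef, a D-box factor like Dbp, had log2 ratios of 0.84, 0.84, 1.55 and 2.32 in the Gh, Prl, C1q and Pomc cells and rose in the last pair. Nr1d2, a nuclear receptor that represses Arntl, had 0.42, 0.27, 1.24 and 2.23. Nr1d1, the other repressor, had -1.03, -0.90, -0.52 and 0.18, and fell in the Gh cells. The period gene Per3 rose in the Pomc cells (1.88) but had 0.04 in the Gh cells, and Per1 stayed between -0.33 and 0.27 in all 4 sets. The Pomc values and the members beyond the 3 highest and lowest of each set were chosen after they were seen. The plot of the clock genes shows the widest spread in the Pomc cells.

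**Figure D3:**
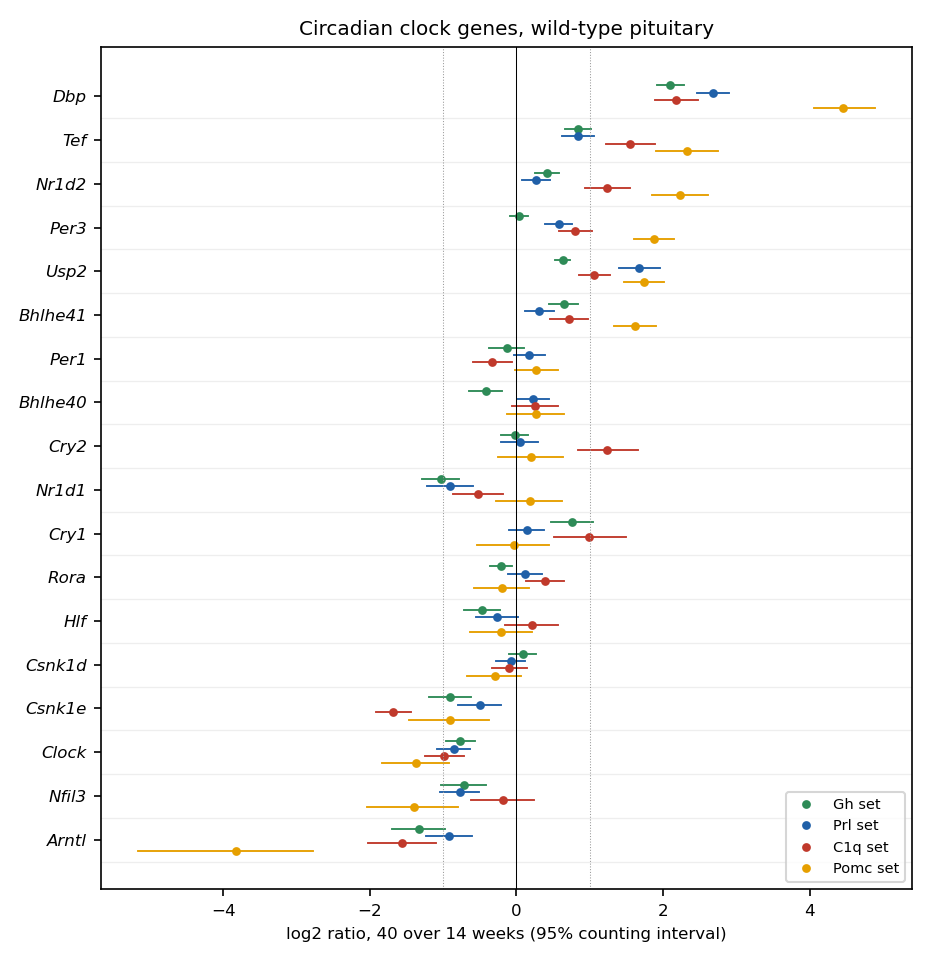
Log2 ratio at 40 over 14 weeks (x axis) of 18 clock genes (y axis) in the Gh, Prl, C1q and Pomc cells of WT pituitary, with exact 95% counting intervals as bars and 1 library per age. Dbp lies right of 2 in every set and reaches 4.46 in the Pomc cells, and Arntl lies left of 0 in every set and reaches -3.83 there.

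Clock elements occur in the promoters of some of these genes. In windows from 250 bases before to 50 after the RefSeq start (GRCm38.p6), the E-box CACGTG, which reads the same on both strands, was found in 5 of 18 clock genes with a window (27.8%), against 8.09% of 27025 genes with one and 12.8% of the 4707 such genes that were measured in all 3 sets. The D-box letters TTATGTAA or TTACGTAA, on either strand, were found in 1 of 18 (5.56%), against 1.23%. The windows of 4 members are shown because they hold these letters, in capitals, and their genes moved unequally.
Tef, chr15:81802516-81802581, plus strand: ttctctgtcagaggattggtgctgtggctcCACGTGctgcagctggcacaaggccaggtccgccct
Per1, chr11:69098753-69098818, plus strand: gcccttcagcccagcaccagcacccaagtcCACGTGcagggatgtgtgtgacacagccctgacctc
Cry1, chr10:85185079-85185144, minus strand: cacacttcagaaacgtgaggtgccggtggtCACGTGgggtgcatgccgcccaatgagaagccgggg
Per3, chr4:151044833-151044900, minus strand: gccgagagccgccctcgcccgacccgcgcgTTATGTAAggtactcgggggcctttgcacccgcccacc
The E-box genes Tef, Per1 and Cry1 had log2 ratios of 1.55, -0.33 and 0.99 in the C1q cells and 2.32, 0.27 and -0.03 in the Pomc cells. Per3, with the D-box letters, had 0.81 and 1.88. The window of Dbp holds neither set of letters. A match is a description and neither a binding site nor a cause.

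The stress response of the endoplasmic reticulum differed between the endocrine sets. Of 22 measured genes, 7 fell and none rose in the Prl cells, 3 fell and none rose in the Gh cells, and in the Pomc cells 3 rose and none fell. Over all genes 7.29%, 5.4% and 6.88% fell in these sets and 4.58% rose in the Pomc cells. The median log2 ratios were -0.60, 0.02 and 0.22, beside -0.01, 0.03 and -0.05 over all genes measured in the same sets.

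Hspa5, the BiP chaperone (chr2:34771970-34777547), was at 1770 scaled CPM at 14 weeks and 643.3 at 40 weeks in the Prl cells, from 66767 and 9154 UMIs. It was at 616.5 and 470.6 in the Gh cells and 862.8 and 861.6 in the Pomc cells. Hspa5 thus fell in the Prl cells, did not pass in the Gh cells (log2 ratio -0.39) and had a ratio of 0.999 in the Pomc cells. Herpud1, which acts in the removal of misfolded proteins, was at 337.7 and 124.1 in the Prl cells, 124.1 and 117.9 in the Gh cells and 75.7 and 129.3 in the Pomc cells. Hyou1, a chaperone of the same compartment, fell in the Prl cells (-1.85) and the Gh cells (-1.19). Hsp90b1 (-1.12) and Pdia4 (-1.32) fell in the Prl cells and had -0.42 and -0.60 in the Gh cells. Of the stress sensors, Atf6 fell in the Gh and Prl cells (-1.38 and -1.33), as did Eif2ak3, known as PERK (-1.36 and -1.51). Xbp1, a factor activated by the sensor Ern1, had 0.36 and 0.05. In the Pomc cells Sdf2l1 (1.30), Ddit3 (1.13) and Dnajb9 (1.02) rose.

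The difference between the Prl and Gh cells was taken gene by gene as the difference of their log2 ratios, with 95% intervals from counting error on the log scale. It was -1.07 for Hspa5 (interval -1.12 to -1.02), -1.37 for Herpud1 (-1.48 to -1.26), -1.28 for Creld2, another protein of the compartment, and 0.05 for Atf6 (-0.32 to 0.42). The Prl cells were below the Gh cells for 20 of the 22 genes, with a median difference of -0.60. Over all genes measured in each set the median log2 ratio was -0.01 in the Prl cells and 0.03 in the Gh cells. How many of all genes lay below was not counted. Plain CPM moves the log2 ratios by -0.03 in the Prl cells and -0.39 in the Gh cells, so every difference moves up by 1 amount. Under plain CPM 16 of 22 were below with a median of -0.23, and Hspa5 had -0.70 and Herpud1 -1.004. Under CPM without the abundant classes it was 19 of 22 with a median of -0.52. Among 5932 genes measured in both sets, 30 were at least 2-fold above in the Prl cells (0.506%) and 24 at least 2-fold below (0.405%). In the Prl cells, Prl went from 47.7% to 37.1% of UMIs and Gh from 0.690% to 3.33%. The part of these changes in the differences was not tested. Outside the list, the difference was -1.04 for Ccnd1 (interval -1.29 to -0.80), the cyclin D1 gene, chosen here after its value was seen.

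**Figure D4:**
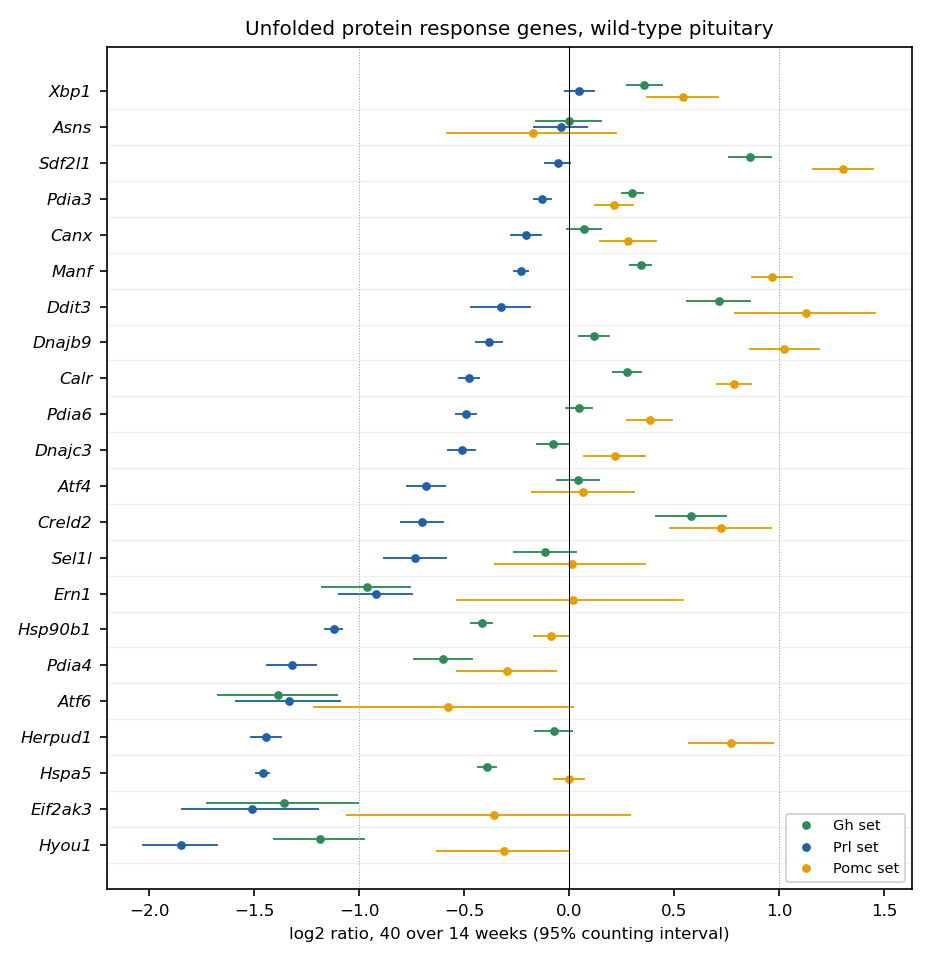
Log2 ratio at 40 over 14 weeks (x axis) of 22 genes of the unfolded protein response (y axis) in the Gh, Prl and Pomc cells, with exact 95% counting intervals as bars and 1 library per age. The points of the Prl cells lie left of those of the Gh cells for 20 of 22 genes, with Hspa5 at -1.46 against -0.39.

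Macrophage genes were called lower in the C1q cells, of which 12.8% at 14 weeks and 40.4% at 40 weeks were also in a hormone gate. The part of this change in the falls was not tested. Of 31 measured genes of macrophage residence, phagocytosis and lipid handling, 22 fell and 1 rose (median log2 ratio -1.38), where 12.6% of all genes fell. In the low-hormone C1q set, where 399 of 8057 genes were higher (4.95%) and 1457 lower (18.1%), 14 of 34 fell and none rose (median -0.56, beside -0.24 over all genes measured in that set). Csf1r, the receptor for the growth factor that macrophages need, was at 293 scaled CPM at 14 weeks and 89.9 at 40 weeks in the C1q cells and 573 and 297 in the low-hormone set. It fell in the C1q cells (-1.71) and its -0.95 in the low-hormone set did not pass. Mrc1, the mannose receptor, was at 55.7 and 7.59 in the C1q cells and 108 and 19.2 in the low-hormone set. Mertk, a receptor for engulfing dead cells, was at 57.3 and 4.35 and at 113 and 19.2. Mrc1 and Mertk fell in both sets, while Tyrobp, an adaptor of many myeloid receptors, was at 943 and 575 and at 1810 and 1660 and passed in neither. Lyz2, lysozyme, fell in both (-1.71 and -1.03), but had -0.52 and did not pass in the C1q cells with gates of 30% and 10 UMIs.

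Genes of chemokines, the interferon response and antigen presentation were also called lower. Of all genes 9.84% rose and 12.6% fell in the C1q cells. In the C1q cells 8 of 22 chemokine and cytokine genes fell and 2 rose, 12 of 36 interferon response genes fell and none rose, and 11 of 19 MHC genes fell and none rose. In the low-hormone set 7 of 23, 6 of 38 and 10 of 21 fell, beside 18.1% of all genes, so that the interferon genes fell in a smaller share than all genes there. Cxcl9, a chemokine induced by interferon gamma, was at 119 and 4.35 scaled CPM in the C1q cells and at 209 and 7.08 in the low-hormone set, from 621 and 7 UMIs there. Cxcl10, a chemokine of the same family, was at 78.3 and 5.06 and at 161 and 23.3. Ciita, the master activator of MHC class II genes, was at 51.5 and 5.87 and at 98.4 and 25.3. H2-T23, a non-classical class I gene, was at 163 and 17.4 and at 305 and 38.4. These 4 genes fell in both sets, but Cd74, the MHC class II invariant chain, was at 18430 and 18020 in the low-hormone set. B2m, the light chain of MHC class I, had log2 ratios of 0.58 in the C1q cells and 1.11 in the low-hormone set, where it rose. Cxcl13, a chemokine that attracts B cells, rose in both, from 10.9 to 28.0 and from 16.9 to 103.

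Cells of other types moved with these results. In the C1q cells the somatotroph markers summed to 43076 and 220728 CPM. In the low-hormone set the 6 thyrotroph markers summed to 1643 CPM at 14 weeks and 16718 at 40 weeks, and the 7 B cell markers, which include immunoglobulin genes, to 3315 and 15800 CPM. Their part in the results was not tested. With gates of 30% and 10 UMIs, Csf1r had a log2 ratio of -0.47, which did not pass, Mrc1 -1.74, Mertk -2.47, Ciita -1.88, H2-T23 -2.39, Cxcl9 -3.49 and Cxcl10 -2.84 in the C1q cells.

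**Figure D5:**
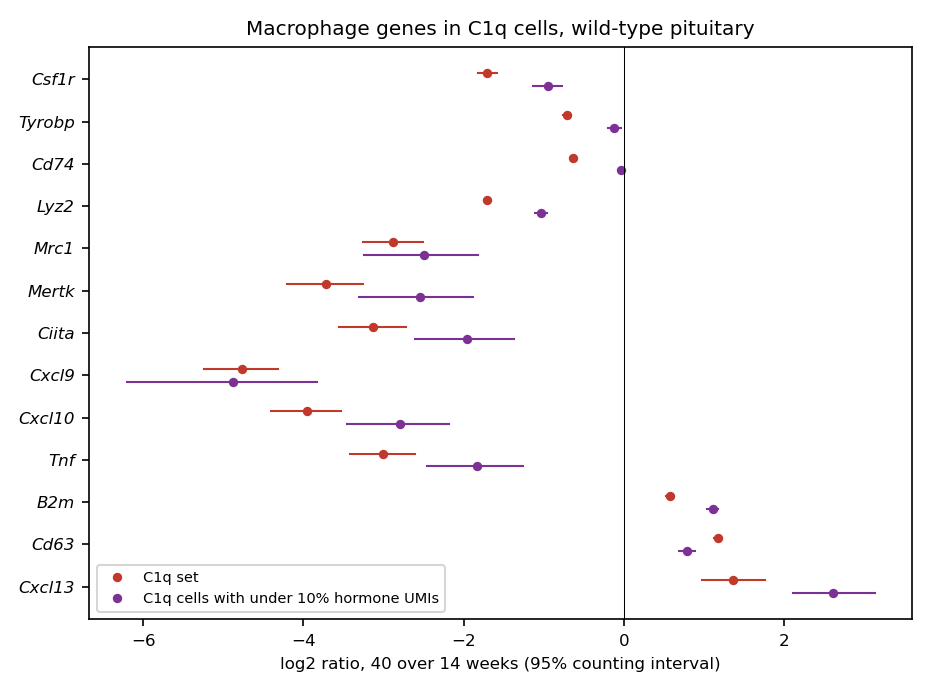
Log2 ratio at 40 over 14 weeks (x axis) of 13 genes of macrophages (y axis) in the C1q cells and in C1q cells with under 10% of UMIs from Gh, Prl and Pomc, with exact 95% counting intervals as bars and 1 library per age. Cxcl9 lies at -4.77 and -4.89, Mertk at -3.72 and -2.55, and Cxcl13 at 1.36 and 2.61.

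Immediate early genes, which respond to cell stimulation within minutes and also to tissue dissociation, fell in 11 of 31 cases and rose in 1 in the C1q cells, where 12.6% of all genes fell. In the low-hormone set 11 of 32 fell and 2 rose, beside 18.1% of all genes falling. In the Gh cells 3 of 27 fell and 1 rose (all genes 5.4% and 5.11%), and in the Prl cells 2 of 25 fell and 4 rose (7.29% and 5.18%), so that the falls in the Prl cells were near the share of all genes. Mcl1, a survival gene among the shared lower genes, was at 320 and 46.5 scaled CPM in the C1q cells and 593 and 76.9 in the low-hormone set. Zfp36, a destabiliser of inflammatory transcripts, was at 261 and 59.0 and at 478 and 127.

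Genes of hormone storage mostly stayed within 2-fold. Of 24 measured genes of hormone processing and secretory granules, 3 rose and 1 fell in the Gh cells. Of 22 in the Prl cells 2 rose and 2 fell. Over all genes 5.11% and 5.18% rose in these sets and 5.4% and 7.29% fell. Pcsk1n, an inhibitor of the prohormone convertase PCSK1, rose from 1269 to 2635 scaled CPM in the Gh cells and from 918.2 to 2084 in the Prl cells. Chga, a granule protein, rose in the Gh cells from 87.9 to 245.6. Pcsk2, a convertase abundant in melanotrophs, rose from 7.24 to 66.1 in the Prl cells, where Pomc UMIs also rose from 1504 to 12630 scaled CPM. Ptprn2, a granule membrane protein, fell in both sets (-1.23 and -1.09), and Syt1, a calcium sensor of exocytosis, fell in the Prl cells (-1.01).

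Among 15 lineage factors measured in the Gh cells, Egr1 was the only one called, and it fell from 609.6 to 293.4 scaled CPM. None of 14 was called in the Prl cells. The shares of all genes were 5.11% higher and 5.4% lower in the Gh cells and 5.18% and 7.29% in the Prl cells. Pou1f1, the factor that defines somatotrophs, lactotrophs and thyrotrophs, was at 189.4 and 179.9 in the Gh cells and at 302.2 and 260.2 in the Prl cells. Ghrhr, the receptor through which the hypothalamus drives growth hormone release, was at 105.8 and 118.6 in the Gh cells. Drd2, the dopamine receptor that restrains lactotrophs, was at 24.63 and 25.02 in the Prl cells. Pou1f1, Ghrhr and Drd2 stayed within 2-fold in these sets, their values chosen for naming after they were seen. Of 6 somatotroph markers measured in the Gh cells 1 fell and none rose (lowest log2 ratio -1.01). None of 5 lactotroph markers measured in the Prl cells was called.

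Of the genes of iron storage and oxidative stress defence 5 of 25 rose and 1 fell in the Gh cells, where 5.11% of all genes were higher. In the Prl cells 2 of 23 rose and 1 fell, near the 5.18% and 7.29% of all genes. Ftl1, the ferritin light chain, rose from 555.8 to 2154 scaled CPM in the Gh cells and from 549 to 1991 in the Prl cells. Gstm1, a glutathione transferase, rose from 37.2 to 82.2 and from 12.2 to 52.99. Gclc, a subunit of the enzyme that starts glutathione synthesis, fell in both sets (-1.03 and -1.10). Of the glycolysis and hypoxia genes 2 of 24 rose in the Gh cells and 6 of 23 in the Prl cells, with none falling, where 5.11% and 5.18% of all genes were higher. Aldoc, an aldolase, rose from 30.02 to 62.3 in the Gh cells and from 5.94 to 26.7 in the Prl cells. Ldhb, a lactate dehydrogenase subunit, rose from 5.70 to 22.4 in the Prl cells. Gstm1 and Aldoc stayed lower in the Prl cells than in the Gh cells at each age. Gh rose from 0.690% to 3.33% of the UMIs of the Prl cells. The part of RNA of other cells in these rises was not tested.

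Lists of the growth axes gave few calls. Of all genes 5.11% rose and 5.4% fell in the Gh cells, and 5.18% rose and 7.29% fell in the Prl cells. In the Gh cells 2 of 13 genes of growth hormone and insulin-like growth factor signalling fell, Irs2 (-1.09), an adaptor of the insulin receptor, and Igf2r (-1.04), and none rose. In the Prl cells Dlk1, an imprinted factor, rose from 617.6 to 1315 scaled CPM. Dlk1 is also among the somatotroph markers, which summed to 7723 CPM at 14 weeks and 34869 at 40 weeks in the Prl cells. The part of somatotroph RNA in this rise was not tested. Of 6 measured genes of Cdk5, its activators and its targets, Rb1 fell in the Gh cells (-1.17) and Cdk5rap2 in the Prl cells (-1.04), and none rose. The long nuclear RNA Kcnq1ot1 fell in both, from 319.7 to 153.0 and from 385.2 to 114.3.

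Glucocorticoid-induced genes were called in both directions, and the difference between the sets was not tested. In the Gh cells 3 of 14 fell and 1 rose, where 5.4% of all genes fell and 5.11% rose. Zbtb16, a transcription factor induced by glucocorticoids, fell there from 50.3 to 11.1 scaled CPM, Slc39a14, a zinc and iron carrier, from 45.1 to 13.8, and Fkbp5, a regulator of the glucocorticoid receptor, from 52.3 to 19.03. The metallothionein gene Mt2 rose from 92.9 to 203. In the Prl cells 4 of 8 rose and none fell, among them Mt1 from 113 to 328 and Mt2 from 33.7 to 101. The shares of all genes in that set were 5.18% higher and 7.29% lower. Mt2 stayed lower there than in the Gh cells at each age, and the part of RNA of other cells in its rise was not tested. In the Prl cells Zbtb16 was at 1.75 and 1.27, under the level needed to count as measured. Thrb, a thyroid hormone receptor, fell in the Prl cells from 240 to 72.6.

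Hormone transcripts over all kept cells were Gh with a log2 ratio of 0.67, Prl -0.25, Pomc 0.43, Cga 1.41, Lhb 2.53, Fshb -1.16 and Tshb 2.38. Cga, the alpha subunit shared by the glycoprotein hormones, rose together with Lhb and Tshb, whereas Fshb, the follicle-stimulating hormone subunit, fell. Gh was at 104600 scaled CPM at 14 weeks and 166871 at 40 weeks and Prl at 184712 and 154830, and neither passed. Shares of cells in the gates were 16.8% and 18.8% for Gh, 32.2% and 26.7% for Prl, and 11.5% and 20.03% for C1q. The low-hormone C1q set was 9.32% and 2.42% of kept cells. C1q cells with 30 UMIs or more numbered 532 and 451, and those with 5 to 9 UMIs 80 and 753.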

How the data were processed

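The deposited matrices hold UMI counts per gene and barcode, whole numbers without normalization, per the file headers. They were made by the authors with Cell Ranger 3.0.2 on mm10, per the submitters' processing notes, while the file headers give 3.0.1. Cells were obtained by papain digestion and red cell lysis, per the labels' protocols. Counts were summed per cell set and compared with scripts in Python 3.11.15 (numpy 2.4.6, scipy 1.17.1, pandas 2.3.3, matplotlib 3.10.9). Size factors used genes with at least 20 UMIs in each library. Ratios against 0 counts used a floor of 3 counts per library. No doublet caller was run, and an alternative leaves out the 5% of cells with the most UMIs. The calls were tested on simulated counts of summed cell sets, and the gating was not tested on simulated cells. Members and gene lists were chosen with earlier results of these data known. Named genes were the hormones and C1q genes, the 10 highest and 10 lowest shared genes, the 6 highest and 6 lowest of each set at 50 scaled CPM or more, and up to 3 highest and 3 lowest per list and set. Alternatives varied scaling, thresholds, filters, gates, cell weighting and thinning. The p25OE libraries were used only for the same ratios in the same genes. A few genes enter the counts but are not reported here by name.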

Additional observations from a re-analysis of the deposited data

Results flagged for a closer look

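Over all kept cells, 6 named genes moved in opposite directions with age in the WT and p25OE libraries. Each genotype has 1 library per age, so the difference was not tested. C1qb, a complement gene of macrophages, had a log2 ratio at 40 over 14 weeks of 1.05 in WT and -1.64 in p25OE. Cga, the glycoprotein hormone alpha subunit, had 1.41 and -3.95, and Lhb, the luteinizing hormone subunit, 2.53 and -4.44. Tshb, the thyrotropin subunit, had 2.38 and -8.04. The neutrophil genes S100a8 and S100a9 had 5.90 and 4.96 in WT and -5.70 and -7.02 in p25OE. The cells differed too: from 14 to 40 weeks the p25OE Gh cells went from 14.8% to 0.621% of kept cells, the Prl cells from 14.7% to 0.699% and the C1q cells from 13.4% to 3.30%, while in WT they were 16.8% and 18.8%, 32.2% and 26.7%, and 11.5% and 20.03%. The WT C1q gate was less pure at 40 weeks, and its low-hormone cells went from 9.32% to 2.42% of kept cells. In p25OE such cells went from 9.76% to 2.82%. The part of cell composition in these ratios was not tested.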

How the results depend on the processing

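Counts of shifted genes depended on the settings. Under plain CPM, higher and lower genes were 127 and 798 over all kept cells, 107 and 1202 in the Gh cells, 139 and 2506 in the C1q cells, and 47 and 328 shared, and shared higher genes also called higher were 52 in the Pomc cells, 57 in the remaining cells and 58 in the p25OE Pomc cells. Under CPM without hormone, mitochondrially encoded and ribosomal protein genes they were 139 and 695 in all cells, 158 and 770 in the Gh cells and 71 and 178 shared, with 689 lower in the Prl cells and 72 shared higher genes called in the remaining cells. In the order all, Gh, Prl, C1q and shared, a 1.5-fold threshold gave 1331, 1360, 1093, 1973 and 664 higher and 1185, 1228, 1256, 1848 and 428 lower. A 3-fold threshold gave 61, 80, 92, 157 and 30 higher and 40, 48, 71, 436 and 19 lower. Without the filter on low counts there were 1204, 1196, 1808, 1613 and 298 higher and 1374, 1147, 1173, 2230 and 318 lower. At a mean of at least 50 scaled CPM there were 165, 177, 121, 336 and 78 higher and 49, 48, 61, 215 and 8 lower. In the C1q cells 441 genes were higher with gates of 30% and 10 UMIs and 399 in the low-hormone set, which was chosen after the data were seen. Apoe (0.16), H2-Aa (0.13) and Trem2 (0.060) turned from lower to log2 ratios just above 0 in the C1q cells with those gates, and the cause was not tested. The other 91 counts computed stayed within 1.5 times. For single genes 19238 values kept their call, 806 passed anew, 986 no longer passed, 3 reversed and 1 (Ccl5 in the C1q cells) passed in the opposite direction. Of the list medians 195 stayed and 161 moved by over 0.25 or changed sign under the CPM scalings, which move every gene of a set alike. Of the 136 shared higher and 110 shared lower genes, 111 and 101 were kept when every cell had equal weight, 121 and 106 without the 5% of cells with the most UMIs, and 112 and 90 with the stricter gates.

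No paired analysis was possible because each age has 1 library, and for the same reason leaving out a replicate was not possible. The shallower 40-week library limits low genes such as Arntl in the Pomc cells, which rests on 7 UMIs.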
